A study of Mus musculus with 24 samples.

Results

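The peaks of 500 bp or more on chromosomes 1 to 19 were examined in 16 peak lists from mouse kidney cells mapped with antibodies against Sox9 and H3K4me3. They were chosen by width alone, as the end minus the start of each listed peak, and are called wide here, against narrow for peaks under 500 bp. There were 1520 wide peaks among the 551517 peaks on these chromosomes (0.276%), 532 in the 8 Sox9 lists and 988 in the 8 H3K4me3 lists, out of 576562 peaks on all chromosomes. The cells came from male mice, 9 to 12 weeks old and 25 to 30 g, that carried Sox9IRES-CreERT2/+ and R26RtdT/+, were operated for bilateral renal ischemia reperfusion injury and received tamoxifen when the injury was induced. The tdTomato-positive cells were sorted 10 days or 48 h after injury, with 4 biological replicates at each time, fixed lightly and frozen. Aliquots of each pellet went to the Sox9 antibody, to the H3K4me3 antibody and to an input library. The times are those of the sample titles, because another label gives day 10 for all samples. The reporter marks cells in which the Sox9 locus was active when tamoxifen acted, and their descendants, and every group shares the injury, the genotype and the tamoxifen.

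In CUT&RUN an antibody holds a nuclease at its target, and the DNA released around that target is sequenced. Sox9 is a transcription factor that binds short DNA motifs and is switched on in injured kidney tubules, where it marks cells that repair the epithelium. H3K4me3 is a histone mark laid down over the nucleosomes that flank active transcription starts, so it is known for broad, tall peaks at the promoters of expressed genes. Mouse autosomes carry their centromere at one end, next to the lowest coordinates of the assembly, and tandem repeats are common there.

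Merged over the lists, the wide peaks formed 844 regions, of which 97 overlapped a promoter window. The share for narrow peaks was not computed. Some of these promoter sequences are shown first. Of 32851 promoter windows in a RefSeq table of GRCm38.p6 (250 bases before to 50 after a start), 131 windows of 118 genes overlapped a wide region, and for 114 of these genes the region was wide in a single list. The windows of the other 4 genes are printed 5′ to 3′ with that of Fzd4, a Wnt receptor gene chosen after its values were seen. The lncRNA gene Gm40237 (chr4:118547156-118547455, + strand) lies in a region that was wide in 9 lists, 4 of Sox9 and 5 of H3K4me3. The lncRNA gene Gm36734 (chr13:71020372-71020671, - strand) lies in one wide in 2 Sox9 lists. In these first 2 windows capitals mark every copy of the 12-base word that occurs most often.
Gm40237: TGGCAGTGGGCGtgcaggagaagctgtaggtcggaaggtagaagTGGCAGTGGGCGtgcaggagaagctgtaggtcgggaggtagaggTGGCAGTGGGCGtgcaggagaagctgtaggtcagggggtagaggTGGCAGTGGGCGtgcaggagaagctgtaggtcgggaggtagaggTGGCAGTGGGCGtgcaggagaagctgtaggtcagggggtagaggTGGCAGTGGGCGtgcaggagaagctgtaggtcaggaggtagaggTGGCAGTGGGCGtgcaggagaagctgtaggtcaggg
Gm36734: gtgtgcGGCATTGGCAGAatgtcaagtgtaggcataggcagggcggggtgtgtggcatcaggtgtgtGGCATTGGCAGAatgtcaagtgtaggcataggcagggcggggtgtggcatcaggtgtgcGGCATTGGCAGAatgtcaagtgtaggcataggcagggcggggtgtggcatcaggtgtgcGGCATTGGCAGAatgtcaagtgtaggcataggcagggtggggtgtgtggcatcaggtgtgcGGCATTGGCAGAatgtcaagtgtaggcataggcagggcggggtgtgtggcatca

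Both windows were built from repeated units. In Gm40237 the marked word occurred 7 times and 90.0% of all 12-base words occurred more than once. In Gm36734 the marked word occurred 5 times and 92.0% of the words occurred more than once. Over all 32851 windows, 45 windows (0.137%) reached 50% of repeated words, against 2 of these 4 genes and 0 of the 114 genes whose region was wide in 1 list. This measure was chosen after the 2 sequences were seen and is a description. The next 3 windows are of the other kind, and capitals there mark CG, the dinucleotide that is dense in CpG island promoters. Ankrd17 (chr5:90366136-90366435, - strand), which codes for an ankyrin repeat protein, and the lncRNA gene Gm9958 (chr5:90366747-90367046, + strand) share 1 region that was wide in 2 H3K4me3 lists at 10 days. Fzd4 (chr7:89404116-89404415, + strand) lies under a peak that was wide in 1 H3K4me3 list at 10 days.
Ankrd17: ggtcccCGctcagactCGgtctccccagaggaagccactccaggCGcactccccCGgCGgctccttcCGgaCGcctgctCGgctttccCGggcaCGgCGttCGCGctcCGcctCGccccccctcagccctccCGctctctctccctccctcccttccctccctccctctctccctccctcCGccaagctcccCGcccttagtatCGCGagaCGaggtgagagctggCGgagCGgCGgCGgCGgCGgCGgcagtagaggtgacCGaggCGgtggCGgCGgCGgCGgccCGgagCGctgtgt
Gm9958: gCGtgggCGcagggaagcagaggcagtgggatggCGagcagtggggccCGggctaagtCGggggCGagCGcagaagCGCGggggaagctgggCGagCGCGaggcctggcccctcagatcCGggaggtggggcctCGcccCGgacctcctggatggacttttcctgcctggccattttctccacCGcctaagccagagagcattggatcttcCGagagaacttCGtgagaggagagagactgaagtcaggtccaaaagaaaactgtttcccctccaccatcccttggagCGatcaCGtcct
Fzd4: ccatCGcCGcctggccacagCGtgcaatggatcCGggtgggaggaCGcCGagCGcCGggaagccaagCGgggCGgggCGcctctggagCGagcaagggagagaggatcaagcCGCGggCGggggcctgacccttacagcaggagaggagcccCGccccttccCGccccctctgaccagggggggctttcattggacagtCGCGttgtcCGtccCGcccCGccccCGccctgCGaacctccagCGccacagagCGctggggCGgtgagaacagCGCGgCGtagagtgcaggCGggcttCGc

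The window of Ankrd17 held 36 CG, that of Gm9958 held 20 and that of Fzd4 held 32, against 10 in Gm40237, 8 in Gm36734 and a median of 7 over all windows. A CG was found in 94.6% of all windows, and 26.5% held at least 20. The letters ACAAT or their reverse complement ATTGT, a core that Sox proteins are known to bind, were in 31.0% of all windows and in none of the 5 printed. GGGCGG or its reverse complement CCGCCC, the core bound by Sp1, was in 35.7% of all windows, with 8 matches in Fzd4, 4 in Gm36734, 1 in Ankrd17 and 0 in the other 2. A match is a description of these letters and not a bound site.

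Sox9 lists held 131, 54, 48 and 91 wide peaks at 10 days and 19, 92, 62 and 35 at 48 h. H3K4me3 lists held 246, 85, 202 and 94 at 10 days and 67, 95, 128 and 71 at 48 h. The numbers thus overlapped between the times for both antibodies, and the highest and lowest lists were the longest and the shortest of their antibody except for H3K4me3 at 48 h, where the 67 wide peaks stood in a list of 28224 peaks and the shortest list, of 24718, held 71. Between 0.161% and 0.404% of the peaks of a Sox9 list were wide, and between 0.237% and 0.360% of those of an H3K4me3 list. Sequencing depth is unknown here, and whether the length of a list follows it could not be tested.

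**Figure D1:**
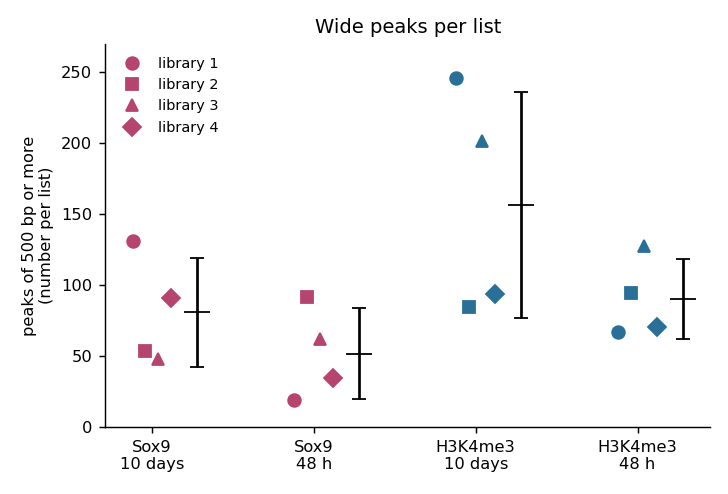
Number of peaks of 500 bp or more on chromosomes 1 to 19 in each list, by antibody and time. Symbols are the 4 libraries of a group, and the bar is the mean with its SD (81.0 ± 38.4 for Sox9 at 10 days, 52.0 ± 32.0 at 48 h, 156.8 ± 79.8 for H3K4me3 at 10 days and 90.2 ± 28.0 at 48 h).

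No difference between the times in the number of wide peaks passed a test. On the log2 scale the 10 day lists exceeded the 48 h lists by 0.76 for Sox9 (two-sided exact permutation p = 0.286, adjusted p = 0.508) and by 0.69 for H3K4me3 (exact permutation p = 0.229, adjusted p = 0.457). With 4 against 4 libraries the smallest p is 0.0286, and p-values were adjusted by the Benjamini-Hochberg method over 16 tests. The share of peaks that were wide averaged 0.267% ± 0.092 at 10 days and 0.310% ± 0.088 at 48 h for Sox9 (SD, n = 4, exact permutation p = 0.543), and 0.291% ± 0.0082 at 10 days and 0.296% ± 0.050 at 48 h for H3K4me3 (SD, n = 4, exact permutation p = 0.771).

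Sox9 lists held fewer wide peaks than H3K4me3 lists, at 0.517-fold (66.5 ± 36.2 against 123.5 ± 65.8, SD, n = 8). The difference was -0.95 on the log2 scale, lower for Sox9 in 8 of 8 pellets. Unpaired, the exact permutation test gave p = 0.0286 and an adjusted p of 0.0762. With the antibodies paired by pellet, exact sign flips gave p = 0.0078, the smallest that 8 pairs allow. The unpaired p was 0.0944 without replicate 3 of 10 days and 0.0641 without replicate 3 of 48 h. The Sox9 lists were also shorter, from 7379 to 81519 peaks against 24718 to 84789, and wide peaks made up 0.289% ± 0.086 of a Sox9 list and 0.293% ± 0.033 of an H3K4me3 list (SD, n = 8). The part of list length in the number was not tested.

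Width and height went together. Both are read from the same pileup, so the next values are a description. The median wide peak of a list spanned 585 to 753 bp for Sox9 and 581.5 to 657 bp for H3K4me3, against 124 to 163 bp and 122 to 144 bp for the narrow peaks of those antibodies. Near the limit, 137 peaks lay 0 to 9 bp above it and 425 lay 1 to 10 bp below it, so the set has no natural edge. There were 224 peaks of 1000 bp or more, 101 of Sox9 and 123 of H3K4me3. Solved from the fold and p-value in the file, nearly all peak heights were whole multiples of 1 value per list, called a step here. Between 8.6% and 28.6% of the wide peaks of a list were 1 step high, against 92.5% to 98.0% of the narrow ones, and the median wide peak was 2 to 7 steps high. A wide peak was therefore usually 2 or more steps high, and a narrow peak usually 1.

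Wide peaks were concentrated in a few places. Merged over the lists they formed 844 regions, of which 697 (82.6%) were wide in 1 list, 77 in 2 lists, 61 in 3 to 10 and 9 in 13 or more. Those 9 regions took in 319 of the 1520 wide peaks (21.0%), 146 of 532 for Sox9 and 173 of 988 for H3K4me3. No region was wide in 11 or 12 lists, so the 9 stand apart from the rest in the plot of recurrence. Of the 697 regions wide in 1 list, 142 (20.4%) had no peak of any width in the other 15.

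**Figure D2:**
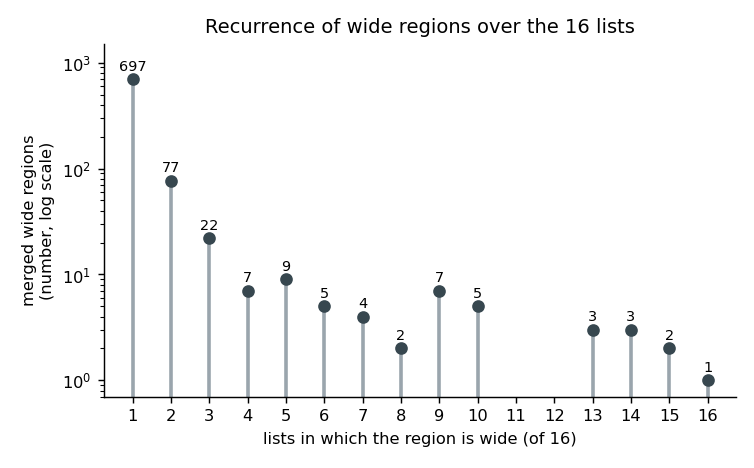
Number of merged wide regions (log scale) by the number of the 16 lists in which the region was wide. The 697 regions of 1 list are at the left, and the 9 regions of 13 to 16 lists at the right are separated by a gap at 11 and 12 lists.

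The region wide in all 16 lists was chr17:13550733-13553136, over the lncRNA gene 2700054A10Rik. Its widest Sox9 peak measured 917, 692, 2301 and 2124 bp at 10 days and 585, 2404, 2337 and 2380 bp at 48 h. Its widest H3K4me3 peak measured 500, 788, 1157 and 1738 bp at 10 days and 524, 936, 1063 and 1120 bp at 48 h. The times overlapped for both antibodies. Its height was 11 to 48 steps in the Sox9 lists and 17 to 43 steps in the H3K4me3 lists, so it was tall with either antibody.

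Wide in 15 lists each were chr2:98666560-98667323 and chr14:124801549-124802243. The chromosome 2 region overlapped no annotated gene. Sox9 peaks there measured 647 to 764 bp with a median of 743.5 bp, and H3K4me3 peaks 402 to 755 bp with a median of 745.5 bp. Its height was 428 to 3117 steps in the Sox9 lists and 691 to 2025 steps in the H3K4me3 lists. The single list in which it was not wide was H3K4me3 replicate 1 of 48 h, at 402 bp. A neighbouring region, chr2:98662239-98662974, was wide in 13 lists.

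The broadest regions stood at the low end of chromosome 9. The regions chr9:3000036-3005112 and chr9:3005390-3038298 overlapped no gene and were wide in 14 lists each. Sox9 had its widest peak of all there, 32909 bp in replicate 1 of 10 days, and H3K4me3 one of 12149 bp in replicate 4 of 48 h. The megabase that starts at 3 Mb of chromosome 9 held 214 wide peaks, 14.1% of all, and chromosome 9 as a whole held 17.2% of the wide peaks but 5.39% of all peaks. Over chromosomes 1 to 19, the first 4 Mb held 0% to 41.7% of the wide peaks of a Sox9 list and 8.96% to 32.9% of those of an H3K4me3 list, against 0.914% to 1.2% and 0.851% to 1.07% of the narrow peaks. The value of 0% was that of Sox9 replicate 1 of 48 h, with 19 wide peaks. The limit of 4 Mb was chosen after these positions were seen. These shares count peaks as listed and not separate places. The region chr9:3005390-3038298 was 1 wide peak in Sox9 replicate 1 of 10 days. In H3K4me3 replicate 4 of 10 days it was split into 20 wide peaks.

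The other 4 of the 9 regions wide in 13 or more lists lay on chromosomes 13 and 14, also outside annotated genes. The region chr14:124801549-124802243 was wide in 15 lists with heights of 4 to 14 steps for Sox9 and 10 to 19 for H3K4me3. The region chr14:19415727-19419633 was wide in 14, with median widths of 3644.5 bp for Sox9 and 3361 bp for H3K4me3. The region chr13:114482397-114483314 was wide in 13 lists and low, at 1 to 4 steps for Sox9 and 1 to 9 for H3K4me3. The region chr13:110743967-110744544, wide in 13 lists as well, had median widths of 556 bp for Sox9 and 564 bp for H3K4me3. The pellet of replicate 1 of 48 h stood apart here. Its Sox9 and its H3K4me3 list both had no peak of any width in 4 of the 21 regions that were wide in 9 or more lists, among them both chromosome 9 regions and chr14:19415727-19419633, which had a peak in all 14 other lists. The comparisons given here kept their direction and their side of the threshold without that pellet.

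Of the 21 regions wide in 9 or more lists, 12 overlapped no gene, and 4 a protein-coding gene. These 4 genes were not picked by the rule for named genes and were chosen after their values were seen. They were Smo, the transducer of Hedgehog signals (10 lists, 6 of Sox9 and 4 of H3K4me3), Ddo, which codes for D-aspartate oxidase (10 lists, 3 and 7), Trp53, the gene of the tumour suppressor p53 (9 lists, 4 and 5), and Gm52030 (9 lists, 3 and 6). A region over the pseudogene Trp53-ps on chromosome 17 was wide in 9 lists as well, 4 of Sox9 and 5 of H3K4me3. How reads that match both a gene and its pseudogene were placed is not given in the sources used here, so both loci are uncertain. An exchange of reads between them was not tested. In Trp53 the widest Sox9 peak measured 689, 149, 454 and 607 bp at 10 days and 210, 520, 1311 and 303 bp at 48 h. Its widest H3K4me3 peak measured 1467, 668, 346 and 287 bp at 10 days and 714, 375, 1505 and 558 bp at 48 h. All 16 lists thus had a peak there, and the times overlapped. Counted over whole genes, which takes in several regions, wide summits lay in Tmem267 in 13 lists (7 of Sox9 and 6 of H3K4me3). They lay in Sfi1 in 12 lists (6 and 6), against 10 each for Smo, Ddo and Trp53. Tmem267 and Sfi1 were also named after their values were seen.

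Wide peaks were found away from genes more often than narrow ones. A protein-coding gene held the summit of 29.5% ± 7.4 of wide and 49.5% ± 1.9 of narrow Sox9 peaks, and of 34.5% ± 6.9 of wide and 49.4% ± 0.76 of narrow H3K4me3 peaks (SD, n = 8 lists each). The wide share was lower in 16 of 16 lists. None of the 9 regions wide in 13 or more lists overlapped a protein-coding gene. They held 5.97% to 43.8% of the wide peaks of a list, and the share within genes was not computed without them. Outside genes, the median distance to the nearest gene was larger for wide peaks in 14 of 16 lists, with list medians of 42.9 to 302.3 kb for wide and 45.2 to 58.6 kb for narrow peaks.

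The share at gene ends, with the summit within 1000 bp of either end of a protein-coding gene, was lower for wide than for narrow Sox9 peaks. In the 10 day lists it was 5.34%, 1.85%, 2.08% and 4.40% for wide peaks, against 5.56%, 9.44%, 9.84% and 7.56% for narrow peaks. In the 48 h lists it was 0%, 0%, 4.84% and 2.86% for wide peaks, against 9.48%, 9.15%, 11.3% and 8.78% for narrow peaks. Wide peaks were lower in 8 of 8 lists, by a mean of -6.21 ± 3.14 points (SD, n = 8, exact sign flips p = 0.0078, adjusted p = 0.025). The gap was widest in 48 h replicate 1 and all but absent in 10 day replicate 1. The lists are short: taking 3 counts as the limit that a count of 0 allows, 0 of 19 wide peaks allows a share of up to 15.8%, and 0 of 92 one of up to 3.26%, while the upper ends of their Wilson 95% intervals are 16.8% and 4.01%. Among peaks of exactly 1 step the difference was -3.61 points and missed the threshold (exact sign flips p = 0.219).

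H3K4me3 did not show one direction. In the 10 day lists the share was 30.9%, 1.18%, 11.9% and 0% for wide peaks, against 10.7%, 8.61%, 8.33% and 8.08% for narrow peaks. In the 48 h lists it was 2.99%, 5.26%, 5.47% and 5.63% for wide peaks, against 8.41%, 8.0%, 8.86% and 8.86% for narrow peaks. Wide peaks were higher in replicates 1 and 3 of 10 days and lower in the other 6 lists, with a mean of -0.81 ± 9.23 points (SD, n = 8, exact sign flips p = 0.875, adjusted p = 0.886). In replicate 1 of 10 days, 76 of 246 wide peaks lay at gene ends (Wilson 95% interval 25.5% to 36.9%), and in replicate 3, 24 of 202 (8.12% to 17.1%), together 100 of the 136 such peaks of the 16 lists. Among peaks of 2 or more steps, where wide and narrow peaks are closer in height, wide peaks were lower in all 16 lists, for H3K4me3 by -13.9 points (exact sign flips p = 0.0078), and in replicate 1 of 10 days the shares were 33.5% for wide and 42.4% for narrow peaks. The intervals and limits cover counting error only. Gene ends are the outermost ends of a gene, so starts inside a gene are missed. In replicate 4 of 10 days, given as 0%, wide summits lay 95 bp from a start of Ubtf and 199 bp from one of Pak6. Another lay 372 bp from a start of Zmiz1. These genes were named after their values were seen.

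**Figure D3:**
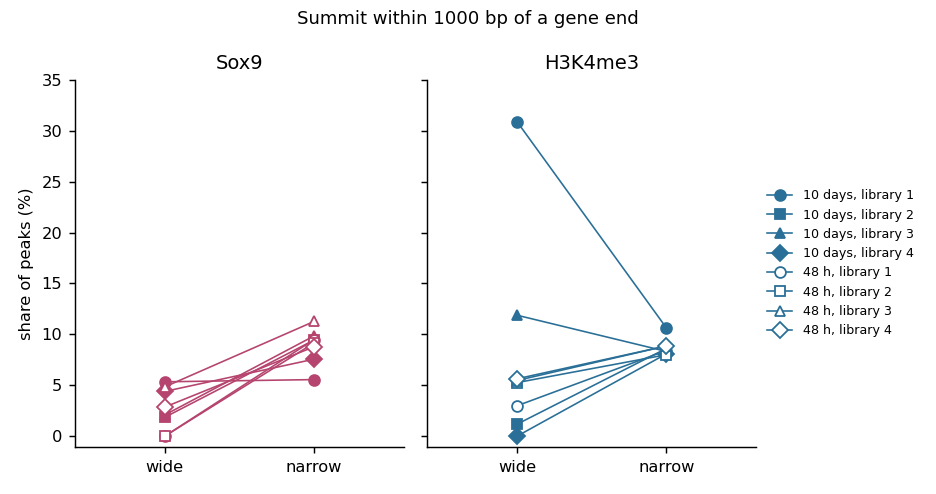
Share of wide and of narrow peaks (%) with the summit within 1000 bp of a gene end, with 1 line per list, filled symbols for 10 days and open symbols for 48 h. For Sox9 the wide share is below the narrow one in 8 of 8 lists, and for H3K4me3 it is above in replicates 1 and 3 of 10 days, at 30.9% and 11.9%.

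No difference between the times in the gene-end share of wide peaks passed a test, and the difference between the antibodies passed or missed it with the definition of a gene end and with 1 pellet. For Sox9 it was 3.42% ± 1.72 at 10 days and 1.92% ± 2.36 at 48 h (SD, n = 4, exact permutation p = 0.371). For H3K4me3 it was 11% ± 14 at 10 days and 4.84% ± 1.24 at 48 h (SD, n = 4, exact permutation p = 0.543), and the difference of 6.15 points became -0.49 without replicate 1 of 10 days. Sox9 and H3K4me3 wide peaks had 2.67% ± 2.07 and 7.91% ± 9.96 at gene ends (SD, n = 8, unpaired exact permutation p = 0.123, adjusted p = 0.282). With the antibodies paired by pellet, the difference of -5.24 points gave p = 0.117 by exact sign flips. The next tests of this difference are unpaired. With the start of transcription as the only gene end, that difference was -5.56 points and passed an unadjusted threshold of 0.05 (exact permutation p = 0.0177). Without replicate 4 of 10 days it was -6.62 points (exact permutation p = 0.0449), and with each other pellet left out p was above 0.05, up to 0.297. Without replicate 1 of 10 days the difference was -2.34 points.

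Few genes carried a wide peak at an end. Of 20665 protein-coding genes, 15 did in a Sox9 list (0.0726%), 143 in an H3K4me3 list (0.692%) and 156 in either (0.755%), whereas 53.1% had a Sox9 peak of any width at an end in some list and 70.2% an H3K4me3 peak. In 2 or more lists there were 4 genes (0.0194%). Gm52030, a predicted gene (chr13:99084606-99086009) that is also the only gene with such a Sox9 peak in 3 libraries, carried one in 9 lists, 3 of Sox9 and 6 of H3K4me3. Its widest Sox9 peak measured 1029, 0, 457 and 565 bp at 10 days and 0, 428, 519 and 0 bp at 48 h, where 0 means no peak. Its widest H3K4me3 peak measured 668, 569, 1211 and 0 bp at 10 days and 822, 707, 467 and 521 bp at 48 h. Heights there were at most 3 and 4 steps, so this region was wide but low.

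The other 3 genes with wide peaks in more than 1 list were chosen after their values were seen. Setd5, which codes for a SET domain protein of chromatin, carried a wide peak at an end in Sox9 replicate 3 of 10 days and in H3K4me3 replicates 3 of 10 days and 2 of 48 h, the widest 762 bp and 5 steps. Ndrg1, a gene induced by hypoxia and stress, carried one in H3K4me3 replicates 1 and 3 of 10 days, up to 659 bp. Mrtfa, whose product carries actin signals to the transcription factor SRF, carried one in H3K4me3 replicates 3 of 10 days and 2 of 48 h, up to 540 bp. No gene had a wide Sox9 or H3K4me3 peak at an end in at least 3 of 4 libraries of one time and 0 of 4 of the other (0% of 20665 genes). The other 152 genes carried a wide peak in a single list.

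Of those 152, 101 came from H3K4me3 replicate 1 of 10 days alone. Among the genes of that list, named after their values were seen, were Rpl32 (519 bp), Rpl13a (573 bp) and Rplp2 (514 bp) of the ribosome, Cox5b (505 bp) and Atp5pb (511 bp) of the respiratory chain and ATP synthase, and the chaperone gene Hspa8 (502 bp). The median over the 156 genes was 564 bp and 2 steps. Where a start with a known strand was near, 71 wide peaks of this list had their summit within 1000 bp of it, 52 of them (73.2%) within 250 bp, with a median of -34 bp. Of the 6987 narrow peaks near a start in the same list, 54.1% lay within 250 bp, with a median of 38 bp.

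**Figure D4:**
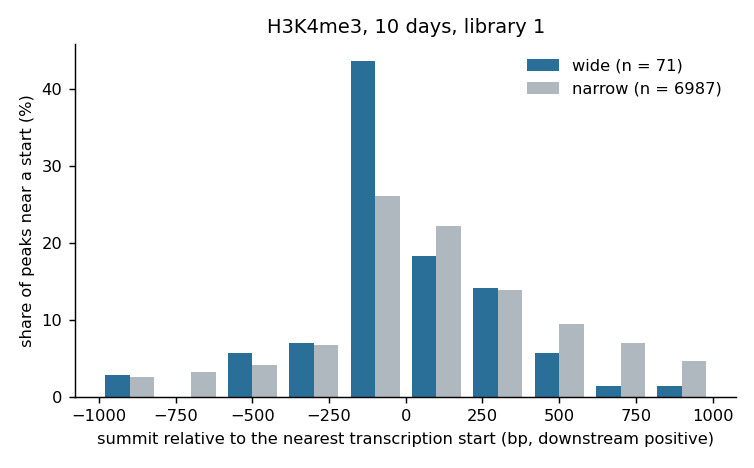
Position of the summit relative to the nearest transcription start (bp, downstream positive) for the 71 wide and 6987 narrow peaks near a start in H3K4me3 replicate 1 of 10 days, in bins of 200 bp. The bin just upstream of the start holds 43.7% of the wide and 26.1% of the narrow peaks.

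The genes of that list were looked up in the lists that did not choose them. Its 103 genes with a wide peak at an end had an H3K4me3 peak of any width at an end in 17.5% to 57.3% of cases in the 7 other H3K4me3 lists, against 11.2% to 27.7% of all genes, higher in 7 of 7. In the 8 Sox9 lists the shares were 11.7% to 40.8% of these genes and 3.71% to 21.4% of all genes, higher in 8 of 8. The 26 genes of replicate 3 of 10 days had 15.4% to 61.5% in the other H3K4me3 lists, higher in 7 of 7, and were higher in 7 of 8 Sox9 lists. All genes include those with no peak in the list that chose, and genes with only narrow peaks there were not looked up. The shares therefore do not tell wide from narrow peaks. The 103 genes rest on 76 wide peaks, some of them shared by neighbouring genes.

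Most of the gene lists examined had no member with a wide peak at an end. There was none for tubule epithelium (0 of 12), proximal tubule (0 of 20), other nephron segments (0 of 11), injured tubule (0 of 18), Sox family (0 of 18), cell cycle and p53 (0 of 18), glycolysis and hypoxia (0 of 18), fibrosis and matrix (0 of 16) and collagens (0 of 42). Against the background of 0.755%, less than 1 member would be called in each of these lists, so a count of 0 there is no result. The same holds for the markers of other cells, with 0 of 12 for endothelium, 0 of 15 for immune cells, 0 of 12 for stroma and mural cells and 0 of 20 for silent genes of other tissues, and for Hox genes (0 of 39) and replication-dependent histones (0 of 67). In at least 1 of 8 lists, H3K4me3 peaks of any width stood at an end of 11 of 12 tubule epithelium, 19 of 20 proximal tubule, 9 of 11 other nephron and 7 of 18 injured tubule markers. For the other cells these were 6 of 15 immune, 10 of 12 endothelial, 7 of 12 stromal and mural and 12 of 20 silent genes. Over all genes that share was 70.2%, and no test was made. Above it were the tubule epithelium (91.7%), proximal tubule (95%), other nephron (81.8%) and endothelial (83.3%) markers. Below it were the injured tubule (38.9%), immune (40%), stromal and mural (58.3%) markers and the silent genes (60%). Peak lists do not show which cells gave the fragments.

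Apart from the olfactory receptor genes, the other lists held 1 to 5 members with a wide peak, against 0.755% of all genes. Counts this small are given as a description and not as a result about a family. Fzd4 was the one member of 39 Wnt genes (2.56%), with an H3K4me3 peak of 601 bp and 3 steps that also covers an end of Tmem135 in replicate 1 of 10 days. Of 26 immediate early and stress genes 2 carried one (7.69%), Hspa8 and Egr3, an immediate early transcription factor, with a Sox9 peak of 505 bp in replicate 4 of 48 h. There were 4 of 82 cytoplasmic ribosomal protein genes (4.88%), 3 of 97 oxidative phosphorylation genes (3.09%) and 5 of 388 zinc finger genes (1.29%), all from H3K4me3 lists. Among gene families known from the nose and from hair there were 2 of 354 vomeronasal receptor genes (0.565%), 1 of 56 keratin-associated genes (1.79%) and 0 of 1104 olfactory receptor genes. Olfactory receptor genes also had H3K4me3 peaks of any width at an end less often, at 24.2% against 70.2% of all genes.

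Wide peaks of one antibody lay on peaks of the other. For Sox9, 30.5%, 53.7%, 64.6% and 35.2% of wide summits at 10 days fell in an H3K4me3 peak of the same pellet, against 1.03% to 2.87% of narrow summits. At 48 h it was 36.8%, 45.7%, 59.7% and 68.6% of wide summits, against 1.41% to 2.77% of narrow summits. The mean difference was 47.5 ± 14.3 points, higher for wide in 8 of 8 lists (SD, n = 8, exact sign flips p = 0.0078, adjusted p = 0.025). The values of the times overlapped, and the share was lowest in the longest list, replicate 1 of 10 days.

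For H3K4me3, 24.4%, 45.9%, 20.8% and 51.1% of wide summits at 10 days fell in a Sox9 peak of the same pellet, against 0.615% to 1.41% of narrow summits. At 48 h it was 8.96%, 44.2%, 39.1% and 31.0% of wide summits, against 0.70% to 1.22% of narrow summits. The mean difference was 32.2 ± 14.3 points, higher for wide in 8 of 8 lists (SD, n = 8, exact sign flips p = 0.0078, adjusted p = 0.025). The low value of 8.96% came from the pellet of 48 h replicate 1, whose Sox9 list was the shortest of all.

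The antibodies of a pellet share its input, and wide peaks are taller than narrow ones, so the same share was taken in other ways. In the lists of the other antibody from the 7 other pellets, which have other inputs, 27.8% to 55.9% of wide and 0.780% to 3.00% of narrow Sox9 summits lay in a peak, and 16% to 45.9% of wide and 0.623% to 1.15% of narrow H3K4me3 summits. Among peaks of 2 or more steps, partner shares were 37.4% to 70.2% for wide and 6.81% to 39.9% for narrow Sox9 peaks, and 11.8% to 55.4% for wide and 3.64% to 12.8% for narrow H3K4me3 peaks. The wide share was higher in all 16 lists, but in 48 h replicate 1 only at 43.8% against 39.9% for Sox9 and 11.8% against 10.1% for H3K4me3. Without the 9 recurrent regions, 14.3% to 45.0% of wide and 1.03% to 2.82% of narrow Sox9 summits lay in a partner peak, and 4.76% to 28.1% of wide and 0.613% to 1.40% of narrow H3K4me3 summits.

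Wide peaks also returned in other libraries of the same antibody. On average over the 7 other libraries, 19.6% to 56.3% of the wide summits of a Sox9 list lay in a peak of any width, against 0.477% to 1.93% of narrow summits, a difference of 41.9 ± 12.0 points (SD, n = 8, exact sign flips p = 0.0078, adjusted p = 0.025). For H3K4me3 it was 20.4% to 52.9% of wide and 1.13% to 1.84% of narrow summits, a difference of 37.0 ± 11.5 points (SD, n = 8, exact sign flips p = 0.0078, adjusted p = 0.025). Both were higher for wide peaks in 8 of 8 lists.

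**Figure D5:**
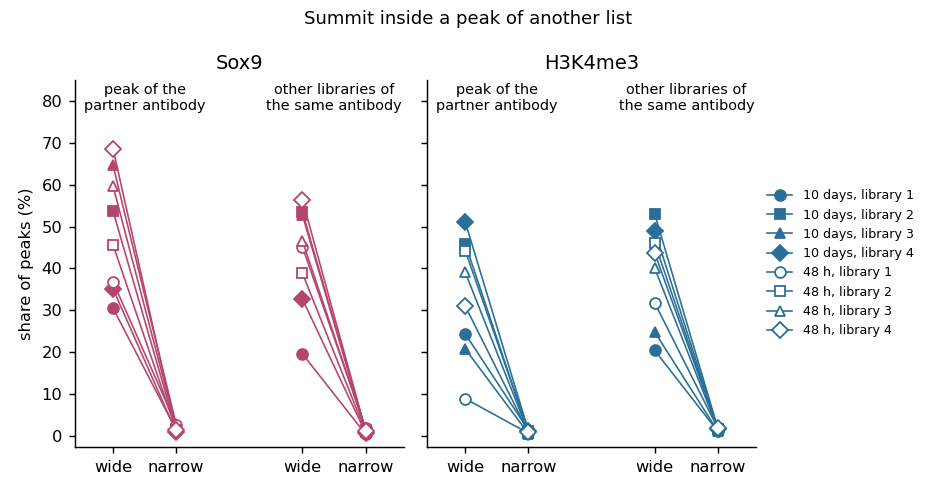
Share of wide and narrow summits (%) inside a peak of the partner antibody of the same pellet (left pair of each panel) and, averaged over the 7 other libraries, of the same antibody (right pair), with 1 line per list. Wide shares run from 8.96% to 68.6%, and narrow shares stay under 3%, in all 16 lists.

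Regions wide with both antibodies numbered 97, which is 31.3% of the 310 Sox9 wide regions and 15.4% of the 631 H3K4me3 wide regions. Of the 54 regions wide in 2 or more Sox9 lists, 44 (81.5%) were wide in an H3K4me3 list. Of the 93 regions wide in 2 or more H3K4me3 lists, 53 (57.0%) were wide in a Sox9 list. Regions wide at both times numbered 41 for Sox9, 18.6% of 220 at 10 days and 31.3% of 131 at 48 h. For H3K4me3 they numbered 69, 14.9% of 463 at 10 days and 29.1% of 237 at 48 h.

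By shared bases, no greater likeness of wide peaks within a time than between times was found. The base-pair Jaccard index of Sox9 wide peaks averaged 0.250 within and 0.260 between times (one-sided exact permutation over 35 splits, p = 0.743). Sox9 pairs ranged from 0.040 to 0.389 within and from 0.028 to 0.447 between times. For H3K4me3 the index averaged 0.179 within and 0.189 between times (exact permutation p = 0.886). The index counts bases, so the longest regions weigh most. Without the regions wide in 12 or more lists, the Sox9 difference was 0.0026, of the opposite sign (exact permutation p = 0.371). A few regions were wide in at least 3 of 4 libraries of one time and 0 of 4 of the other, 2 at 10 days and 1 at 48 h for Sox9 and 1 at each time for H3K4me3. The region chr2:51552884-51555103, outside genes, was wide in 3 Sox9 and 3 H3K4me3 lists of 10 days and in 0 lists of 48 h, but had a peak of some width in all 16 lists. The others for Sox9 were the Trp53-ps region, wide at 10 days, and chr7:123020663-123023481, wide at 48 h. For H3K4me3 it was chr11:3143942-3144985, wide at 48 h and within Sfi1, a centrosome gene. Sfi1 as a whole held a wide summit in 6 lists of 10 days and 6 of 48 h. All 4 regions were chosen after their values were seen, and no test was made of them.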

How the data were processed

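Peak lists of 16 CUT&RUN libraries (8 Sox9, 8 H3K4me3) were used, each called against the input of its pellet, as the names of its peaks state. The genome build was mm10 and the tools were MACS3, Bowtie, Bowtie2 and Partek 10, per the submitters' processing notes. Read filters, scaling and depth are not given in the sources used here. The 8 input libraries were not analysed here. The deposited files give positions, a score, a fold enrichment (the authors' ratio) and the p-value and q-value as −log10 values. The deposited score was not used, and the fold and −log10 p-value served only to solve each peak's height, which for 99.9% to 100% of the peaks of a list lay within 0.05 of a whole multiple of 1 step. Unequal libraries give unequal lists, so wide and narrow peaks were compared within each list.

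Peaks of 500 bp or more on chromosomes 1 to 19 were the members. Genes were the 20665 protein-coding genes of these chromosomes by the RefSeq annotation of GRCm38.p6, which is the mm10 assembly, and overlap meant a summit inside a peak. Times and antibodies were compared by two-sided exact permutation over libraries, wide and narrow peaks by exact sign flips over lists, and Jaccard indices over 35 splits. The 16 tests were adjusted together by the Benjamini-Hochberg method. The fits were checked on simulated data with SciPy 1.17.1, pandas 2.3.3 and NumPy 2.4.6 in Python 3.11.15, and figures drawn with Matplotlib 3.10.9.

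The members, gene lists, tests and rules were chosen with earlier results of these data known. Named genes were, per antibody, up to 12 with a wide peak at an end in at least 3 libraries, up to 6 per direction specific to a time, up to 2 members of each gene list with one in at least 2 lists, the 8 most frequent regions (a ninth, tied with 2 of them at 13 lists, was added) and the widest peak of each antibody. Other names are given as chosen after their values were seen. The planned comparison of promoter CpG counts was not made, since sequences covered too few of the genes (82 of 103 in the list with most). Lists were labelled as biological replicates, and any 2 lists shared the exact start and end of at most 13 peaks. Sox9 and H3K4me3 libraries of a number and time were taken from 1 pellet, as the labels' protocols state, which pairs them, while their deviations correlated only between -0.030 and 0.065.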

Additional observations from a re-analysis of the deposited data

Results flagged for a closer look

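The median width of wide peaks in Sox9 replicate 1 of 48 h was 585 bp, farther below the other 3 libraries of its group than a test for single outlying values allows; this list held 19 wide peaks and none of 1000 bp or more. The gene-end share of wide peaks in H3K4me3 replicate 1 of 48 h was 2.99%, likewise low against the other 3 libraries of its group. It rests on 2 of 67 peaks, and its Wilson 95% interval of 0.82% to 10.2% takes in the shares of those 3 libraries. Both lists come from 1 pellet. Of 24 groups of values examined, chance alone marks about 1 in 20.

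Outside chromosomes 1 to 19 another 140 peaks of 500 bp or more were listed, 68 on X, 18 on Y and 54 on the mitochondrial chromosome. They entered no comparison, and no control list was at hand to set them against.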

How the results depend on the processing

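Of 105 alternatives other than leaving out a library, 93 kept the direction and the side of an unadjusted p of 0.05. H3K4me3 wide peaks minus narrow peaks at gene ends was 0.20 points at 400 bp or more, 0.42 without regions wide in 12 or more lists, 0.44 with starts only, 1.76 among peaks of exactly 1 step, -8.24 at 1000 bp or more and -13.9 among peaks of 2 or more steps. For Sox9 it was -3.61 among peaks of exactly 1 step. The Sox9 gene-end share of wide peaks, 10 days minus 48 h, was -1.39 points at 400 bp, and the Sox9 share of wide peaks 0.0021 points at 1000 bp. The number of wide peaks, Sox9 against H3K4me3, was -0.73 (log2) at 400 bp, and their gene-end share -5.56 points with starts only. The Sox9 Jaccard difference was 0.0026 without the recurrent regions. The cause was not tested.

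Leaving out 1 library gave -0.030 to 0.026 for the Sox9 Jaccard difference, -0.49 to 9.81 points for the H3K4me3 gene-end share between times, -3.82 to 0.23 points for H3K4me3 wide against narrow, -0.024 to 0.017 points for the H3K4me3 share of wide peaks, -1.08 to -0.79 (log2) for the number and -6.62 to -2.34 points for the gene-end share of Sox9 against H3K4me3. With a replicate block, time differences keep their values by arithmetic, and only p can change. For the number of Sox9 wide peaks (0.76 log2) p was 0.286 by exact permutation and 0.5 by exact sign flips with the block. With 4 pairs the smallest p is 0.125. Correlations between 10 day and 48 h libraries of the same number were -0.017 to 0.027 for Sox9 and -0.055 to 0.047 for H3K4me3. They cannot tell whether numbers pair the times, since the 2 antibodies of 1 pellet also gave only -0.030 to 0.065. At 1000 bp some values were missing because Sox9 replicate 1 of 48 h had 0 such peaks, and the promoter CpG comparison was not run. Depth is unknown, and lists with 19 to 62 wide peaks give coarse shares.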
